A study of Mus musculus with 6 samples.

Results

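The 10 genes described here (the members) mark cells of the vessel wall in muscle. They are Acta2, Cnn1, Myh11, Tagln, Mylk, Smtn, Lmod1, Rgs5, Pdgfrb and Notch3. They were chosen by name as known markers of smooth muscle and pericytes, with earlier results of these data known. All 10 were found among the 54532 genes of the deposited table. RNA was sequenced from muscle of 3 control and 3 Igf2 cKO mice, each as 1 library, on a C57BL/6 background. In both groups loxP sites flank exon 2 of both copies of Igf2, the gene of the fetal growth factor IGF2 (Igf2f/f). Igf2 cKO animals (cKO from here on) were Mck-Cre+; Igf2f/f, in which the muscle creatine kinase promoter drives Cre recombinase, and controls were their Mck-Cre-; Igf2f/f littermates. The Mck promoter is known to act in striated muscle, so vessel wall cells are not its usual target. The sources used here do not give the muscle sampled or the animals' age and sex. Where 3 values of a group are listed, they follow its replicate numbers 1 to 3.

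Smooth muscle cells ring arteries and veins and contract when calcium and calmodulin activate myosin light chain kinase, which lets myosin slide along actin. Pericytes sit on capillaries, are held there by platelet-derived growth factor B from the endothelium acting on PDGF receptor beta, and share Notch3 with arterial smooth muscle. Many contractile genes of smooth muscle are switched on by serum response factor (SRF) with its partner myocardin, through a DNA element called the CArG box.

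Libraries held between 16184371 and 17905203 counts, and the members together took between 0.164% and 0.218% of them. Fibre markers such as Acta1, Ckm and Myh4 summed to between 98261 and 143845 CPM (counts scaled to a common library size). The targeted gene had few counts in both groups, with 39 to 60 counts of Igf2 in controls and 33 to 42 in Igf2 cKO muscle. That count covers the undeleted exons and other cell types too, and is no check of genotype. Igf2 cKO replicate 1 stood apart in the sum of endothelial markers: 12 endothelial genes summed to 1611 CPM there and to between 2126 and 2368 CPM in the other 5 libraries.

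The promoter of Acta2, the member with the smallest p-value below, is shown with those of Cnn1, the member with the largest fold, and Rgs5, whose groups overlapped. Each is the 250 bases before the RefSeq start of the gene (GRCm38.p6), 5′ to 3′ on the gene's strand, and capitals mark CArG-like elements.
Acta2 (chr19:34255374-34255623, minus strand): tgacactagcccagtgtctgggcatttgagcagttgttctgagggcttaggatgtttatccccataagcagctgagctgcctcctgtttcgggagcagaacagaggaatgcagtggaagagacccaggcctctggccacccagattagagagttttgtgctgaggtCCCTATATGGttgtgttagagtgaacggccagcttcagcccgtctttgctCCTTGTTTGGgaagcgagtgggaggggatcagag
Cnn1 (chr9:22099003-22099252, plus strand): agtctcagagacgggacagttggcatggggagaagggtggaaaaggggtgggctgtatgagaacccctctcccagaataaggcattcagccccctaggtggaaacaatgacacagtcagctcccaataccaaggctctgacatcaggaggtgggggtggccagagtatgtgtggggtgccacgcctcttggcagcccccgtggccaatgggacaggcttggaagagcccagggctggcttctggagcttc
Rgs5 (chr1:169655251-169655500, plus strand): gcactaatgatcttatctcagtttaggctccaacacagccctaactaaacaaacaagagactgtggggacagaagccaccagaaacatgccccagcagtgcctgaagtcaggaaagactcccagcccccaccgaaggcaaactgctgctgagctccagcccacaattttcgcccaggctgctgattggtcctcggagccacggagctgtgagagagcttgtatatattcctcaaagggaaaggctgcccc

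The promoter table held 7 of the 10 members by symbol (Acta2, Cnn1, Mylk, Smtn, Lmod1, Rgs5 and Notch3). A perfect CArG box, searched on both strands, was in 0 of these 7 windows and in 1.47% of all 32851 windows of that length. With 1 of the 6 central bases allowed to be G or C, a form chosen after the sequences were seen, Acta2 held 2 matches, at positions -84 to -75 and -34 to -25 from the start, and the other 6 members held none. Of all windows 7.24% held such an element. The letters TGGGAA, the core bound by RBPJ, the DNA-binding partner of Notch, were in 2 of the 7 windows (Acta2, where they overlap the second CArG-like element, and Smtn) and in 21.6% of all. These matches are descriptions of letters in a short window and not of binding. The RefSeq starts differ in part from the gene coordinates given below. The windows of Mylk (34784700 to 34784949) and Smtn (3539293 to 3539542) lie inside those coordinates. The Cnn1 and Lmod1 windows run past the starts given there. The counts describe windows at the RefSeq start alone.

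Per kilobase, the members spanned more than 2 orders of magnitude. Rgs5 had the highest level by the authors' FPKM, between 192 and 262, followed by Acta2 at 69.6 to 150.2. Smtn came next, between 31.9 and 39.7 FPKM, and Pdgfrb after it, between 21.4 and 25.4 FPKM. Each of these 4 was apart from its neighbours in every library.
Myh11 (14.3 to 20.5 FPKM) and Notch3 (15.2 to 18.4 FPKM) overlapped and were not separable in order. Mylk lay between 5.35 and 7.92 FPKM and Lmod1 between 3.46 and 4.58 FPKM. The lowest were Cnn1, between 0.710 and 2.90 FPKM, and Tagln, between 0.495 and 0.945 FPKM, whose ranges overlapped.

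**Figure D1:**
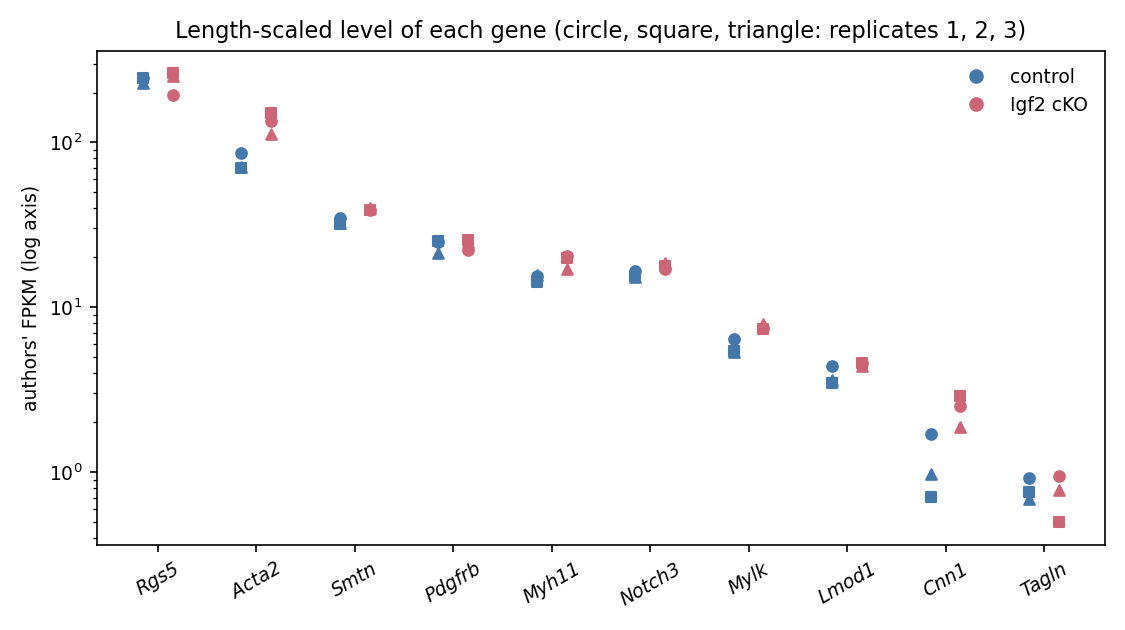
The authors' FPKM of each of the 10 genes (log axis) in each library, controls on the left of each pair and Igf2 cKO on the right, ordered by the mean of the 6 libraries. Rgs5 and Acta2 lead, and Cnn1 and Tagln are lowest.

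Of the 7 contractile genes, 6 had higher means in Igf2 cKO muscle (log2 fold changes from 0.23 for Lmod1 to 1.09 for Cnn1) and Tagln did not (-0.093). Of the 3 pericyte and mural receptor genes, Rgs5 and Pdgfrb lay close to 0 (-0.027 and 0.011) and Notch3 was at 0.17. No member passed the test over all genes. By edgeR's quasi-likelihood test, 0 of the 10 members were called at an adjusted p under 0.05, where 37 of 14867 genes tested (0.249%) were. At an unadjusted p under 0.05 there were 5 members (Acta2, Mylk, Cnn1, Myh11 and Smtn), all contractile and all higher, against 9.93% of all genes in either direction and 5.11% in the higher one. DESeq2 called 1 member, Acta2, and limma-voom called 0. All 10 members passed the low-count filter. In 6 members (those 5 and Notch3) every Igf2 cKO library lay above every control, a pattern that 7.83% of all genes had, and in 0 members every Igf2 cKO library lay below, which 7.67% of all genes had. The rule of the series is an unadjusted p under 0.05 with a log2 fold change beyond 1 in size. Applied to the edgeR fit, and not to the authors' own comparisons, it took 1 member, Cnn1, and 1.58% of all genes. Of the members 8 lay above 0, as did 50.8% of all genes, and their median log2 fold change was 0.24, beside 0.0038 over all genes tested. In bulk tissue, a different number of vessel wall cells and a different amount of RNA per cell cannot be told apart.

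**Figure D2:**
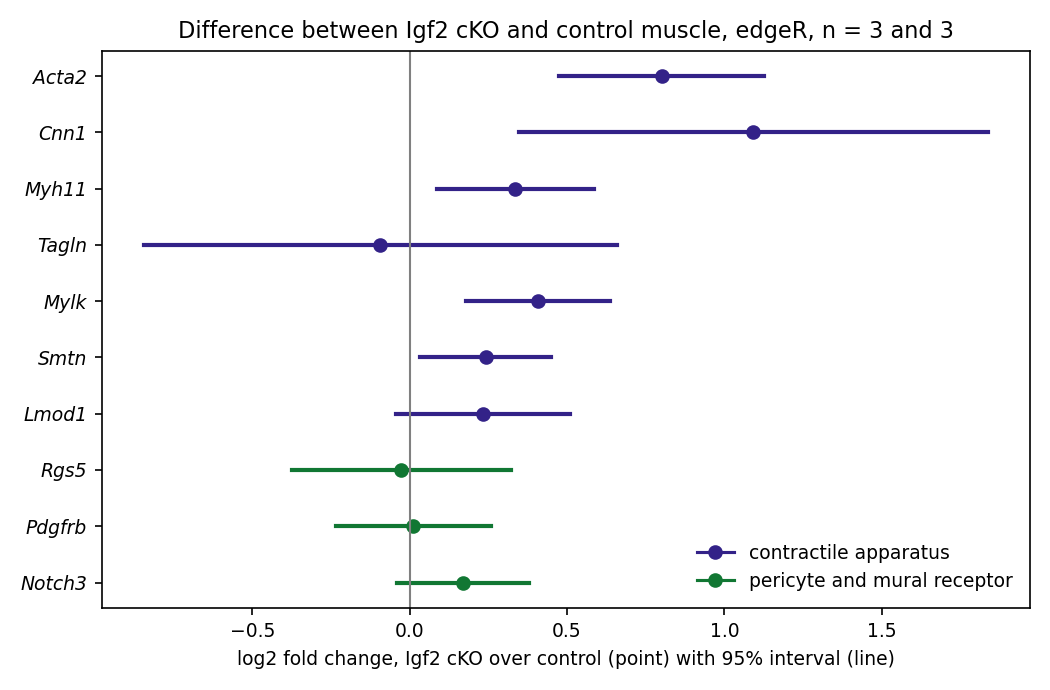
Log2 fold change (Igf2 cKO over control) of each member with its 95% interval, contractile genes in dark blue and pericyte and mural receptor genes in green. The 5 intervals of Acta2, Cnn1, Myh11, Mylk and Smtn lie above 0 before adjustment, and those of the other members include 0.

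Acta2 encodes smooth muscle alpha-actin, the thin filament protein of the contractile cell (ENSMUSG00000035783, chromosome 19, 34241090 to 34255336, minus strand, GRCm38). It had 2869, 2233 and 1945 counts in the controls, against 4312, 4346 and 3389 counts in cKO libraries. Scaled for library size these were 155, 125 and 127 CPM in controls and 240.5, 269 and 200.4 CPM in Igf2 cKO muscle. The lowest Igf2 cKO library was above the highest control, and Igf2 cKO replicate 3 was nearest to the controls. The means were 136 ± 16.9 and 237 ± 34.4 CPM (SD, n = 3 per group). By edgeR the log2 fold change was 0.80 ± 0.14 (SE), a 1.74-fold difference, with a 95% interval of 0.48 to 1.13 on the log2 scale and an adjusted p of 0.0956. It ranked at position 61 of the 14867 genes by p. With 1 library left out, the log2 fold change lay between 0.70 and 0.91 and the adjusted p between 0.104 and 0.350.

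Actins are close relatives, and skeletal actin outnumbers Acta2 by far in these libraries. Acta1, the skeletal form, averaged 37714 ± 2661 CPM in controls against 34102 ± 1407 CPM in cKO muscle (SD, n = 3 per group), with a log2 fold change of -0.15 (adjusted p = 0.896 by edgeR). Actc1, the cardiac and developmental form, was at -1.44 (adjusted p = 0.162) and was called lower by DESeq2. Of the 2146 distinct 50-base stretches of Acta2 transcripts in GENCODE M21, 7 (0.326%) also occur in another gene, Actg1 and pseudogenes of actin, and none in Acta1 or Actc1. Per count of Acta1, Acta2 had between 0.00312 and 0.00436 counts in controls and between 0.00597 and 0.00814 in Igf2 cKO libraries.

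Myh11, the myosin heavy chain of smooth muscle (chromosome 16, 14194535 to 14291372, minus strand), was at 118, 109 and 119.8 CPM in the controls. The cKO libraries had 158, 152 and 129 CPM. The groups did not overlap, and replicate 3 of the Igf2 cKO group was again nearest to the controls. This gave a log2 fold change of 0.34 ± 0.11 (SE), a 95% interval of 0.086 to 0.59 and an edgeR adjusted p of 0.348. Of its 7644 stretches of 50 bases, 26 are shared with Myh9 or Myh10, the nonmuscle heavy chains.

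Mylk encodes the myosin light chain kinase of smooth muscle and nonmuscle cells (chromosome 16, 34745210 to 35002420, plus strand). It was at 72.3, 61.2 and 60.6 CPM in the controls, and cKO libraries stood at 84.9, 83.7 and 89.2 CPM. All Igf2 cKO libraries lay above all controls, and they were close to each other. Its log2 fold change was 0.41 ± 0.10 (SE, 95% interval 0.18 to 0.64, adjusted p = 0.206 by edgeR). Mylk2, the skeletal muscle kinase, averaged 694 ± 57.1 CPM in controls against 808 ± 189 CPM in cKO muscle (SD, n = 3 per group, adjusted p = 0.765), with overlapping groups.

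Cnn1, calponin, binds actin and restrains the myosin ATPase (chromosome 9, 22099216 to 22109630, plus strand). It was thinly covered, with 87, 35 and 41 counts in the controls, against 124, 129 and 87 counts in cKO libraries. Control replicate 1 and Igf2 cKO replicate 3 had equal counts, and after scaling they stood at 4.71 and 5.14 CPM, so the groups were apart by little. The log2 fold change of 1.09 ± 0.33 (SE, 95% interval 0.35 to 1.84, adjusted p = 0.301 by edgeR) had the widest interval but one of the 10. Without control replicate 1 it was 1.53, and its lowest value with 1 library left out was 0.83. The broadly expressed relatives Cnn2 and Cnn3 had log2 fold changes of 0.17 (adjusted p = 0.673) and 0.34 (adjusted p = 0.454).

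Smtn, smoothelin, a cytoskeletal protein of contractile smooth muscle (chromosome 11, 3517523 to 3540612, minus strand), was at 152, 141 and 143 CPM in the controls. The cKO libraries had 171, 171 and 174 CPM. The groups were apart and the Igf2 cKO libraries tight, with a difference of 0.24 ± 0.091 (SE, log2 scale, 95% interval 0.033 to 0.45, edgeR adjusted p = 0.427).
Lmod1, leiomodin, which starts new actin filaments in smooth muscle (chromosome 1, 135324807 to 135368065, plus strand), had 17.5, 13.8 and 14.5 CPM in the controls. The cKO libraries had 18.2, 18.2 and 17.3 CPM. Control replicate 1 lay within the Igf2 cKO range, so the groups overlapped (log2 fold change 0.23 ± 0.12, SE, 95% interval -0.044 to 0.51, adjusted p = 0.593 by edgeR). The value rested in part on single controls, at 0.34 without control replicate 1 and 0.15 without control replicate 2.

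Tagln (SM22 alpha, an actin-binding protein, chromosome 9, 45929619 to 45936058, minus strand) had no higher mean in cKO muscle, and its count is uncertain. It had 34, 27 and 21 counts in the controls, against 34, 16 and 26 counts in cKO libraries, so the groups overlapped. By edgeR it differed by -0.093 ± 0.33 (SE, log2 scale, 95% interval -0.85 to 0.66, adjusted p = 0.960), an interval that includes the log2 fold changes of Myh11, Mylk, Smtn and Lmod1. In GENCODE M21, 1241 of the 1988 exonic bases of Tagln (62.4%) lie opposite exons of the antisense gene Gm48529, and 108 lie opposite exons of Pcsk7. Of its 50-base stretches, 58.3% occur on either strand in transcripts of another gene. Gm48529 itself had between 6 and 39 counts, with the highest in Igf2 cKO replicate 1. The strand setting of the counting is not stated, so it is not known whether reads from the overlapping stretch were told apart by strand. The part of this overlap in the low count was not tested. Overlaps with antisense genes were smaller for Smtn (16.3% of exonic bases), Mylk (6.85%) and Notch3 (6.03%), whose antisense partners reached 9 counts at most, and 0 for the other 6 members.

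**Figure D3:**
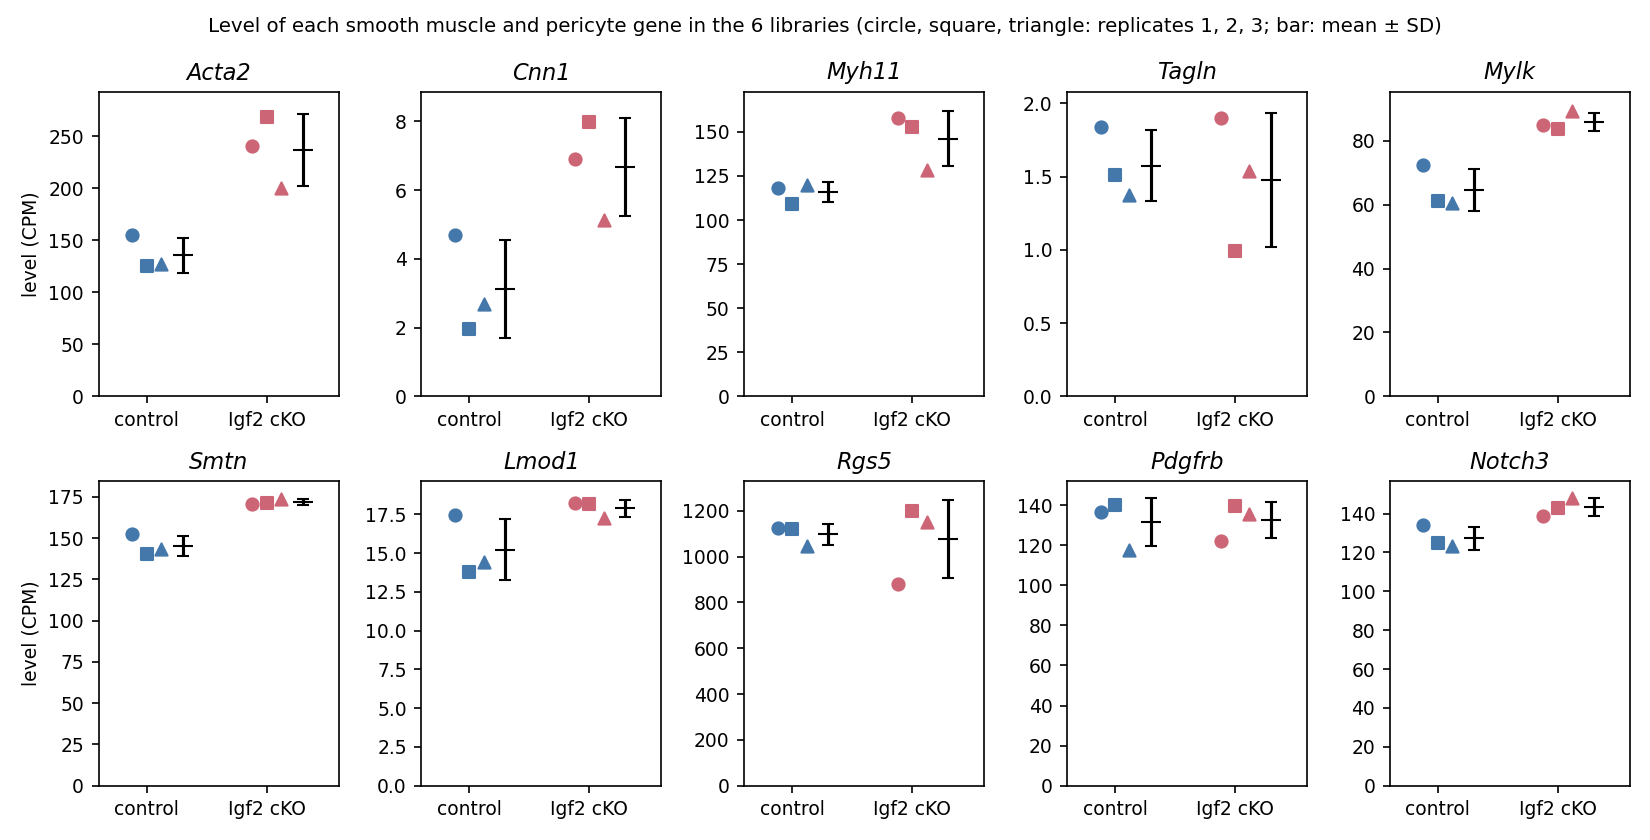
Level (CPM) of each member in the 6 libraries, with the mean and SD beside each group of 3. The groups do not overlap in Acta2, Cnn1, Myh11, Mylk, Smtn and Notch3, and they overlap in Tagln, Lmod1, Rgs5 and Pdgfrb.

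Rgs5 encodes a regulator that speeds up GTP hydrolysis by G protein alpha subunits and is a widely used marker of pericytes (chromosome 1, 169655501 to 169695813, plus strand). It was at 1125, 1122 and 1044 CPM in the controls, and cKO libraries stood at 882, 1198 and 1151 CPM. Igf2 cKO replicate 1 was the lowest of the 6 libraries and the other 2 of its group were the highest, so the groups overlapped. By edgeR it differed by -0.027 ± 0.15 (SE, log2 scale, 95% interval -0.37 to 0.32, adjusted p = 0.975). Without Igf2 cKO replicate 1, the library in which the endothelial sum was also lowest, it was 0.099 with an adjusted p of 0.900 by edgeR. Its part in the value was not tested beyond that.

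Pdgfrb, the receptor through which endothelial PDGF-B recruits mural cells (chromosome 18, 61045150 to 61085061, plus strand), was at 137, 139.8 and 118 CPM in the controls. The cKO libraries had 122, 139.8 and 136 CPM. The groups covered almost the same range, with a difference of 0.011 ± 0.11 (SE, log2 scale, 95% interval -0.24 to 0.26, edgeR adjusted p = 0.984). Its sign turned under upper quartile scaling, at -0.0056.
Notch3, a Notch receptor of arterial smooth muscle and pericytes (chromosome 17, 32120820 to 32166880, minus strand), was at 134, 125 and 123 CPM in the controls. The cKO libraries had 139, 143 and 148 CPM. The groups did not overlap but differed by little (log2 fold change 0.17 ± 0.092, SE, 95% interval -0.040 to 0.38, adjusted p = 0.608 by edgeR).

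Summed over the 7 contractile members, the level was 522, 453 and 469 CPM in the controls, against 681, 703 and 616 CPM in cKO libraries. The sum of Rgs5, Pdgfrb and Notch3 was 1396, 1387 and 1285 CPM in controls and 1143, 1481 and 1434 CPM in Igf2 cKO muscle. The contractile sums were apart between the groups and the pericyte sums were not. Acta2 and Smtn make up most of the first sum and Rgs5 most of the second. Within the contractile set the ratio of Acta2 to Myh11 in CPM was between 1.06 and 1.31 in controls and between 1.53 and 1.76 in Igf2 cKO libraries, so Acta2 was higher relative to Myh11 as well. The ratio of Acta2 to Pdgfrb was between 0.893 and 1.14 in controls and between 1.48 and 1.97 in Igf2 cKO libraries. No test was made on these sums and ratios, since the members were chosen with results known.

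**Figure D4:**
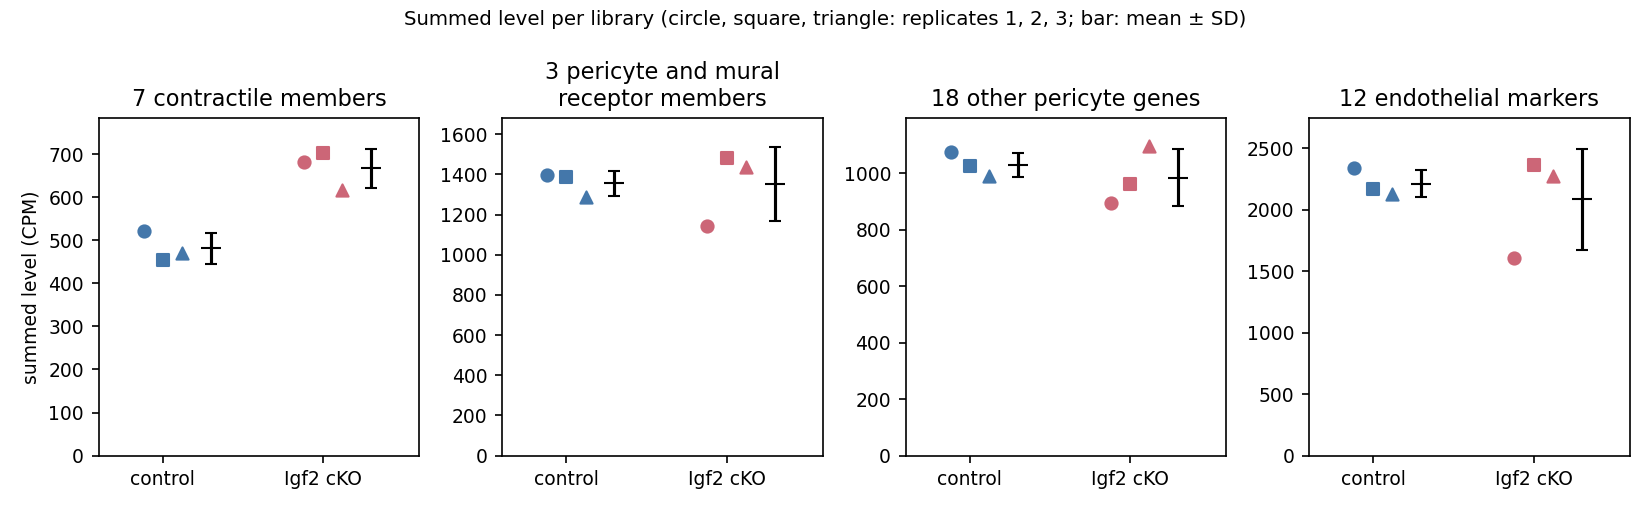
Summed level (CPM) per library of the contractile members, the pericyte and mural receptor members, the other pericyte genes and the endothelial markers, with mean and SD per group of 3. The contractile sums of Igf2 cKO libraries (616 to 703 CPM) lie above those of controls (453 to 522 CPM), and the other 3 sums overlap, with Igf2 cKO replicate 1 lowest in each.

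Other genes of the vessel wall were read from the same fit. In all lists that follow, limma-voom called 0 genes, and DESeq2 calls are given where there were any. Of 20 further genes of the smooth muscle apparatus, 0 were called by edgeR and 3 had an unadjusted p under 0.05, all higher. These were Myl9, the regulatory light chain that Mylk phosphorylates, Flna, filamin A, which crosslinks actin, and Cald1, caldesmon, which binds actin and myosin. Myl9 averaged 91.6 ± 6.58 CPM in controls against 121 ± 1.80 CPM in cKO muscle (SD, n = 3 per group), a log2 fold change of 0.40 (adjusted p = 0.188 by edgeR), and was the 1 gene of the list that DESeq2 called. Flna differed by 0.43 on the log2 scale (adjusted p = 0.284) and Cald1, named with its values known, by 0.28 (adjusted p = 0.459). In this list 17 genes lay above 0 and 3 below, with a median of 0.087. The groups did not overlap in 3 genes that were higher and 2 that were lower, patterns that 7.83% and 7.67% of all genes had. The 2 lower ones were Synpo2 (-0.19, adjusted p = 0.637 by edgeR) and Pdlim7 (-0.28, adjusted p = 0.543 by edgeR), named with their values known. Several genes of the list, such as Tpm2 and Synpo2, are also abundant in striated fibres.

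Of 17 tested further pericyte genes, 0 were called by edgeR, 0 had an unadjusted p under 0.05, and 5 lay above 0 and 12 below, with a median log2 fold change of -0.064. Closest to the threshold were Higd1b, a marker of lung and brain pericytes, at 0.45 (adjusted p = 0.542), and Kcnj8, a subunit of the ATP-sensitive potassium channel, at -0.26 (adjusted p = 0.545). The groups overlapped in each of the 17. Abcc9, named with its values known, weighs most in the summed level of this list. It averaged 417 ± 41.0 CPM in controls and 385 ± 63.1 CPM in cKO muscle (SD, n = 3 per group). Cspg4 (NG2), a classical pericyte proteoglycan, averaged 45.5 ± 3.04 CPM in controls against 43.2 ± 1.21 CPM in cKO muscle (SD, n = 3 per group); it lies outside the naming rule.

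Regulators of the contractile genes showed no call either. Of 9 tested genes of the SRF and myocardin list, 0 were called by edgeR, and 2 had an unadjusted p under 0.05. Klf5 was at -0.69 (adjusted p = 0.263) and Klf4, a repressor of contractile genes in cultured smooth muscle, at 0.55 (adjusted p = 0.353). Srf averaged 111 ± 11.7 CPM in controls against 106 ± 2.40 CPM in cKO muscle, and Myocd differed by 0.63 on the log2 scale (adjusted p = 0.614) at a mean of only 1.00 CPM in controls. Both were named with their values known. The list median was 0.044.
In the RhoA and myosin phosphatase list, which sets the calcium sensitivity of contraction, 0 of 12 were called, and 3 had an unadjusted p under 0.05, 2 higher and 1 lower. Prkg1, the kinase through which nitric oxide relaxes smooth muscle, was at -0.83 (adjusted p = 0.286 by edgeR), with a mean of 33.2 ± 1.18 CPM in controls against 18.7 ± 7.88 CPM in cKO muscle (SD, n = 3 per group). Ppp1r14a, an inhibitor of myosin phosphatase, named with its values known, was at 0.59 (adjusted p = 0.501). In this list 10 genes lay above 0 and 2 below, with a median of 0.091.

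The PDGF and Notch pathways link endothelium, which makes many of their ligands, to the receptors Pdgfrb and Notch3 of mural cells. Of 6 PDGF genes 0 were called by edgeR and 1 had an unadjusted p under 0.05: Pdgfb, the ligand of Pdgfrb, with a mean of 114 ± 1.74 CPM in controls against 95.5 ± 4.25 CPM in cKO muscle (SD, n = 3 per group), a log2 fold change of -0.26 (adjusted p = 0.366), with no overlap of the groups. Pdgfd differed by 0.35 on the log2 scale (adjusted p = 0.595). Of 15 Notch genes 0 were called, and 2 had an unadjusted p under 0.05. Dll4, an endothelial ligand, averaged 43.3 ± 4.44 CPM in controls against 26.1 ± 4.32 CPM in cKO muscle (log2 fold change -0.73, adjusted p = 0.109), and Jag2 was at 0.40 (adjusted p = 0.239); DESeq2 called Dll4. Jag1, the ligand best known to act on Notch3 of mural cells, was at -0.26 (adjusted p = 0.512), and its targets Heyl and Hey1 were at 0.12 (adjusted p = 0.793) and 0.16 (adjusted p = 0.743), all named with their values known. The medians were 0.028 for the PDGF list and 0.054 for the Notch list. The first list includes the member Pdgfrb and the second the member Notch3, so neither is separate from the members.

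**Figure D5:**
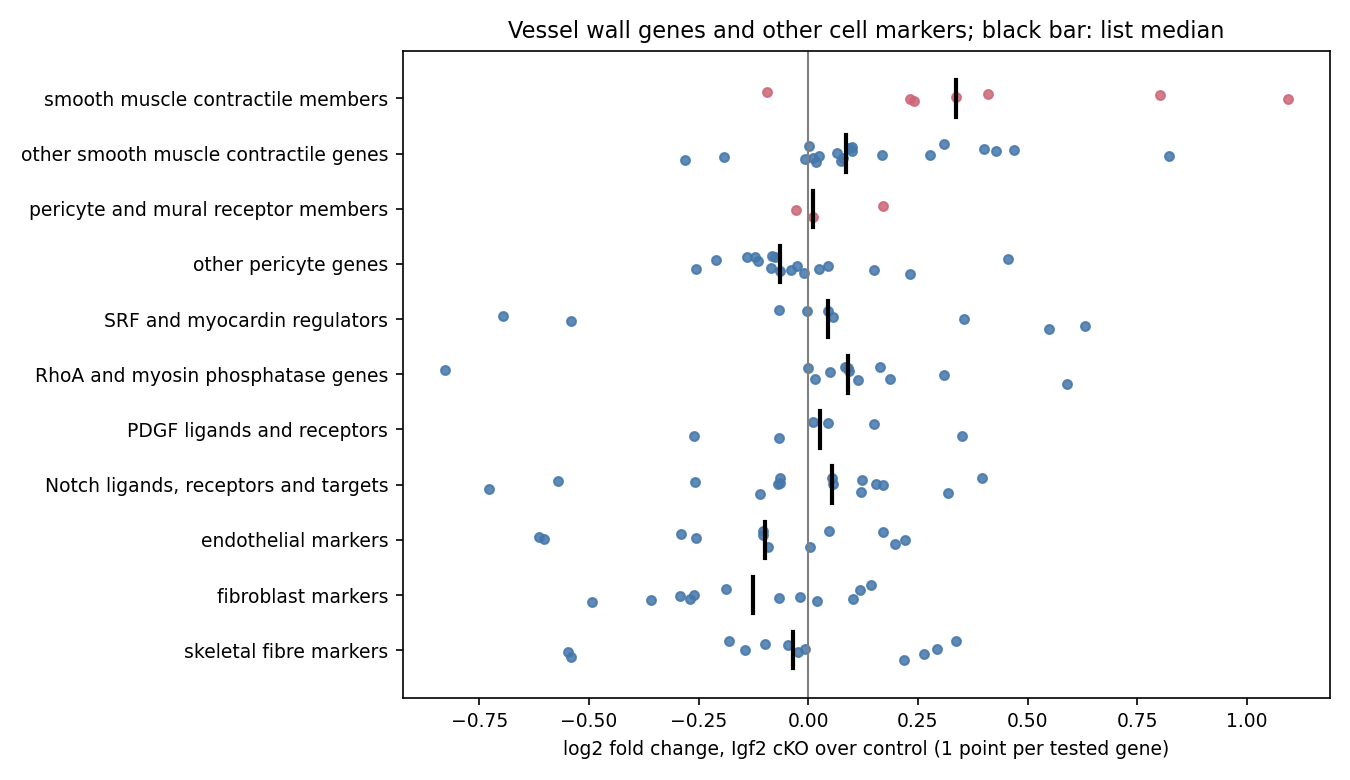
Log2 fold change (Igf2 cKO over control) of every tested gene of the vessel wall and neighbouring cell lists, 1 point per gene in each list. The member lists are in red, the other lists in blue, and the list median is a black bar. Pdgfrb and Notch3 appear again in blue, in the PDGF and Notch lists. The contractile members have the median furthest above 0 (0.34) of the lists plotted, and the adipocyte and Schwann cell lists, which are not plotted, had higher medians (0.94 and 0.52).

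Markers of other cells were compared beside these results, and in none of the lists was a gene called by edgeR. Of 12 endothelial markers 5 lay above 0 and 7 below (median -0.098), 3 had an unadjusted p under 0.05, all lower, and Cldn5 (-0.61, adjusted p = 0.281) and Egfl7 (-0.26, adjusted p = 0.467) had the smallest p. Endothelial sums were between 2126 and 2337 CPM in controls and between 1611 and 2368 CPM in Igf2 cKO libraries. Fibroblast markers had a median of -0.13 over 12 genes, 0 with an unadjusted p under 0.05, with Pi16 at -0.49 (adjusted p = 0.567) and Clec3b at -0.26 (adjusted p = 0.665), and their sums overlapped (6990 to 14095 CPM in controls, 8698 to 13126 CPM in Igf2 cKO). Activated fibroblasts are also known to express Acta2. Fibre markers had a median of -0.034 over 12 genes, 0 with an unadjusted p under 0.05, and Myh4 was at -0.54 (adjusted p = 0.622). Satellite cell and macrophage markers had medians of 0.11 over 7 genes and -0.10 over 9, Schwann cell markers of 0.52 over 8 and adipocyte markers of 0.94 over 8, of which DESeq2 called Thrsp, higher. The summed levels of these 4 lists overlapped between the groups, and single libraries stood apart in the last 2. Adipocyte sums were 887, 875 and 512 CPM in controls, against 708, 669 and 1630 CPM in cKO libraries, with Igf2 cKO replicate 3 the highest. Schwann cell sums were 658, 247 and 436 CPM in controls, against 1086, 666 and 275 CPM in cKO libraries, with Igf2 cKO replicate 1 the highest. Erythroid and cell cycle genes did not overlap in sum: erythroid sums were 314 to 359 CPM in cKO libraries against 451 to 621 CPM in controls (5 of 6 tested genes with an unadjusted p under 0.05, all lower, 3 called by DESeq2). Sums of 7 cell cycle genes were 6.69 to 11.9 CPM against 15.8 to 37.5 CPM (6 of 7 genes with an unadjusted p under 0.05, all lower, 3 called by DESeq2). Their part in the member results was not tested.

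The authors' deposited table compares 1 Igf2 cKO library with the control of the same number, in 3 pairs. With 1 library on each side, its p-values hold no measured spread between animals, so only fold changes are given. In the authors' deposited table Acta2 had log2 fold changes of 0.63, 1.11 and 0.66 in pairs 1 to 3. Cnn1 had 0.56, 2.02 and 0.94 in the authors' deposited table. Its second pair used control replicate 2, the lowest library for Cnn1, with 35 counts. By the authors' deposited table Myh11, Mylk, Smtn, Lmod1 and Notch3 were above 0 in all 3 pairs, between 0.051 and 0.56, while Tagln and Rgs5 were above 0 in 2 pairs and Pdgfrb in 1. Both analyses use the same 6 libraries. For Acta2, Cnn1, Myh11, Mylk, Smtn and Notch3, whose groups did not overlap, 3 pairs above 0 were all but fixed in advance and are no second result.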

How the data were processed

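RNA of 6 muscle libraries was sequenced and analysed by a contractor (Illumina NovaSeq), per the labels' protocols. The aligner, counting tool, strand setting and build are named in none of the sources used here. The deposited table holds a raw count, an FPKM, and the authors' log2 fold change with p-value and adjusted p-value, per the file headers. Another 6 columns of per-sample values were not used. Of 54532 genes, 54495 identifiers occur in GENCODE M21, and 98.3% of these have the same start and end there, as do 8 members (not Acta2 and Notch3), so coordinates are read as GRCm38.

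Counts were tested with edgeR 4.0.16 (R 4.3.3): quasi-likelihood F test, TMM factors, filterByExpr, genotype alone, Benjamini-Hochberg over 14867 genes. CPM are scaled by TMM library sizes. Alternatives included DESeq2 1.42.0 and limma-voom (limma 3.58.1). The fit was tested on simulated data. Each library was taken as 1 mouse, and p-values measure the spread between these libraries.

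Members and lists were chosen with earlier results of these data known. Named genes are the members, up to 3 called genes of each list or otherwise the 2 with the smallest p, close relatives of the members, and the 5 genes with a mean CPM of at least 10 most correlated with the members; others are said to be named with their values known. Some genes this rule takes are not reported here, among them those of the satellite cell, macrophage, Schwann cell, erythroid and cell cycle lists.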

Additional observations from a re-analysis of the deposited data

How the results depend on the processing

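The 10 members kept their direction in all 13 alternative fits except Tagln, Rgs5 and Pdgfrb, whose values lie near 0. Pdgfrb turned to -0.0056 with upper quartile factors. With 1 library left out, Pdgfrb ran from -0.060 to 0.067, Tagln from -0.32 to 0.12 and Rgs5 from -0.11 to 0.099. The median of the members ran from 0.18 to 0.31 with 1 library left out, members called stayed at 0, and genes called over all genes ran from 8 (without control replicate 1) to 68 (without Igf2 cKO replicate 2), against 37. With no low-count filter 282 genes and 2 members were called, Acta2 (adjusted p = 0.0012) and Cnn1 (adjusted p = 0.0309). DESeq2 called 203 genes and 1 member, Acta2 (adjusted p = 3.38e-05). The series' own rule, applied to the edgeR fit, took 235 genes and 1 member, Cnn1. The cause of these differences was not tested. Acta2's adjusted p ran from 3.38e-05 to 0.350 over all alternatives. With the replicate number as a block, 35 genes and 0 members were called. The deviations of same-numbered libraries correlated at 0.174, 0.0774 and -0.031, and the numbers were not taken to pair the animals. The first of these was the highest of all combinations of a control with an Igf2 cKO library. Control replicate 3 with Igf2 cKO replicate 2 came next, at 0.123. The count of 6 members with groups apart was 6 with RLE factors, upper quartile factors and column totals alone, scalings chosen after seeing the data. Cnn1 and Tagln, with 16 to 129 counts in a library, are limited by depth.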

Other observations

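Of 9056 genes with a mean level of at least 10 CPM, those whose log2 CPM over the 6 libraries most resembled the mean standardised level of the 10 members were Atp1b3, Sfpq, Atp2a3, Flna and Inka2, with Pearson's r between 0.980 and 0.991. With 6 libraries in 2 groups such values are a description, and 27 genes exceeded 0.95. Flna, of the further smooth muscle genes above, was at 282, 236 and 217 CPM in control replicates 1 to 3 and at 335, 335 and 319 CPM in Igf2 cKO replicates 1 to 3. Atp2a3, which encodes the calcium pump SERCA3, known from endothelium and other non-muscle cells, was at 43.9, 35.9 and 34.5 CPM in controls and at 43.9, 48.8 and 48.2 CPM in Igf2 cKO muscle. None of the 5 was called (adjusted p between 0.188 and 0.503 by edgeR). In each of the 5, control replicate 1 was the highest control, which follows from how they were picked. The mean standardised level of the members was 0.069, -0.743 and -0.923 in control replicates 1 to 3.

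Among further relatives of the members, Rgs16, a regulator of G protein signalling like Rgs5, differed by -1.06 on the log2 scale (adjusted p = 0.331 by edgeR), and Smtnl2, a smoothelin-like gene, by 0.49 (adjusted p = 0.395). Both were named with their values known.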
